A study of Mus musculus with 12 samples.

Results

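Type I interferon stimulated genes were examined in iNKT1 cells, the T-bet-dependent subset of invariant natural killer T cells, with and without the transcription factor Ets1. The 41 genes were taken from a list of mouse symbols and matched to the deposited table through Ensembl identifiers. All 41 were found among the 14004 genes of the table, and all 41 were among the 13058 genes whose deposited value reached 10 in 3 or more libraries and which were tested.

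RNA was sequenced from sorted cells that bound CD1d tetramer and expressed YFP, in 4 groups of 3 libraries. Conditional knockout (cKO) cells of thymus and of liver had the genotype Tbx21Cre Ets1F/F Rosa26-YFP+, and control cells of thymus and of liver had the genotype Tbx21Cre Rosa26-YFP+. Cre and the YFP reporter were thus present in every group, and Ets1 was deleted only in cells that had switched on Tbx21, the gene of the iNKT1 factor T-bet. The ages of the mice are not given in the labels. The replicates are described as independent without saying that they came from separate mice, so p-values refer to the variation among these samples, part of which may be technical. In bulk RNA of this kind, fewer cells expressing a gene and less RNA per cell cannot be told apart.

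Type I interferons bind a receptor made of Ifnar1 and Ifnar2, whose kinases Jak1 and Tyk2 activate STAT proteins. A complex that contains Stat2 and Irf9 then binds the interferon-stimulated response element (ISRE) and switches on antiviral genes. The products sense foreign RNA, cut or bind it, block viral entry and budding, and attach Isg15 or ubiquitin to proteins. T cells express many of these genes at a basal level without infection.

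Promoter sequences of 5 genes described below are given first, because the ISRE is the element that the complex binds. The sequences are from RefSeq (GRCm38.p6), 5′ to 3′ on the gene's own strand, from 250 bases before to 50 after the start. Capitals mark matches to the ISRE core, GAAA followed by any 2 bases and a second GAAA, on either strand. Ifih1 (chr2:62646206-62646505, minus strand) has 1 match downstream of the start, Oas3 (chr5:120777610-120777909, minus strand) has 1 upstream, Isg15 (chr4:156200769-156201068, minus strand) has 3 that overlap each other, Ifit3 (chr19:34583279-34583578, plus strand) has 2 on the opposite strand, and Samhd1 (chr2:157135047-157135346, minus strand) has 0.
Ifih1: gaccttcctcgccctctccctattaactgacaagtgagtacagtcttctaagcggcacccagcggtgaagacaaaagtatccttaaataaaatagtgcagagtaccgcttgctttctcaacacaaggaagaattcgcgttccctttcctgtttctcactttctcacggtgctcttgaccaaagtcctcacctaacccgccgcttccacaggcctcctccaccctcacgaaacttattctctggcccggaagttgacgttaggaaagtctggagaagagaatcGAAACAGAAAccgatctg
Oas3: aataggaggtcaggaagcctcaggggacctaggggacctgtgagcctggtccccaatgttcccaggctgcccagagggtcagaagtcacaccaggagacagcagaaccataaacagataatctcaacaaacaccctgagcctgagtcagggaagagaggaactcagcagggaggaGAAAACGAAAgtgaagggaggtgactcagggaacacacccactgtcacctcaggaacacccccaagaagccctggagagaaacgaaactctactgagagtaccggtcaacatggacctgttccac
Isg15: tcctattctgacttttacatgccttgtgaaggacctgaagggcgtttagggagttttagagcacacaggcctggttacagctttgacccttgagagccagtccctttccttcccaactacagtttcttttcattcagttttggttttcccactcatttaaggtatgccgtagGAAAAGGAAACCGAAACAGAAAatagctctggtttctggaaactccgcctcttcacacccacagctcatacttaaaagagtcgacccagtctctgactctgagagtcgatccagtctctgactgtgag
Ifit3: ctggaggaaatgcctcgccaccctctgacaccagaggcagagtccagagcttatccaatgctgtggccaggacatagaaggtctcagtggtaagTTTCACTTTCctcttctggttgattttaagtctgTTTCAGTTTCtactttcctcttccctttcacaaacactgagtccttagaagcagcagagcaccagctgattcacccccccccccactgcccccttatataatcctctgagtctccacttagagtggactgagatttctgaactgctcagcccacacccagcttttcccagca
Samhd1: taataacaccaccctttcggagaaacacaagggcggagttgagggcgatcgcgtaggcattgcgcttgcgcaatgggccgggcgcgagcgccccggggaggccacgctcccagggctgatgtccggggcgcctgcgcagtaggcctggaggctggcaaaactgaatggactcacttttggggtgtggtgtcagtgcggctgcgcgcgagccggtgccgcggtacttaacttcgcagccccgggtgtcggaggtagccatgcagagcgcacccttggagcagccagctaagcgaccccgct

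A RefSeq promoter was at hand for 30 of the 41 genes; Ifi27l2a, Mx1, Mx2, Oas2, Usp18, Rtp4, Zbp1, Parp9, Parp14, Dhx58 and Ly6e were the others. The ISRE core was present in 13 of the 30 genes (43.3%), against 3.99% of 27025 genes with a window of the same length. The genes with a match were Isg15, Ifit1, Ifit3, Ifih1, Ddx58, Stat2, Oas1a, Oas3, Rsad2, Bst2, Eif2ak2, Trim30a and Ifitm3. Their log2 fold changes, cKO against control over both tissues, ran from -3.62 (Ifitm3) to 1.18 (Bst2), with Bst2 and Eif2ak2 (0.35) above 0. Dtx3l (-0.70) and Sp100 (-0.71) were without a match. Whether a match goes with a change was not tested. The GAS core TTCNNNGAA, bound by STAT dimers, was present in 10 of the 30 (33.3%) against 9.55% of all genes. In Bst2 and Ifitm3 an ISRE match shared bases with a GAS match. The ETS core CCGGAA was present in 4 of the 30, namely Ifit2, Ifih1, Stat2 and Rsad2 (13.3%), against 16.7% of all genes. A match of letters is a description of the window and not evidence of binding.

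Ets1 transcripts checked the labels. The deposited values of Ets1 were 11817, 7069 and 5788 in cKO thymus, against 23692, 28051 and 19493 in control thymus. They were 3594, 4425 and 5787 in cKO liver, against 18773, 18528 and 15910 in control liver. In each tissue the cKO libraries were all lower than the control ones; counting covered the whole gene, so exons outside the floxed part can contribute. Library depth, recovered from the deposited values, was 18.5 M to 43.4 M reads in 10 libraries and 3.21 M and 3.87 M reads in cKO liver library 2 and control liver library 3. Control thymus libraries 1 and 2 stood apart, with 3528 and 2824 genes without a read against 966 to 2223 in the other 10. All 12 T and iNKT1 cell markers, Zbtb16, Tbx21 and Cxcr3 among them, had a row in the table, and their summed values lay between 108000 and 166000 in every library. Single markers differed by genotype. Xcl1 was called by limma in liver, at 592, 494 and 999 in cKO cells, against 4050, 3230 and 4420 in control cells (0.505% of all tested genes were called). Also without overlap in liver, Il2rb and Cxcr3 were lower and Ifng and Tbx21 higher in cKO cells, whereas in thymus Il2rb was higher in cKO cells.

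Per kilobase of annotated exon, the most abundant of the 41 genes was Ly6e, a GPI-anchored surface protein, with a mean deposited value of 11100 per kb over the 12 libraries. Ifi27l2a (3200 per kb), Sp100 (2670), Zbp1 (1170) and Trim30a (1150) followed. At the low end were Oasl1 (75.6 per kb), Mx2 (45.6), Rsad2 (44.2) and Ifi44 (9.66). The basal programme was thus uneven among its members, with Ly6e and Sp100 expressed in every library and Ifi44 without a read in 8 of the 12. Expression of Ly6e was 35122, 54688 and 44232 in cKO thymus, 47912, 34011 and 36307 in control thymus, 53063, 34879 and 32938 in cKO liver, and 46951, 41451 and 42207 in control liver. Its groups overlapped in both tissues, and its log2 fold change over both tissues was 0.02 ± 0.14 (limma estimate ± SE, adjusted p = 0.977).

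Most of the genes had lower estimates in cKO than in control cells, and a few passed the test. Over both tissues 2 of the 41 genes, Ifih1 and Oas2, fell in cKO cells, where 2.27% of the 13058 tested genes were called in either direction and 1.1% were called lower (limma on log2 of the deposited value + 1, Benjamini-Hochberg adjusted p under 0.05). Estimates lay below 0 for 31 of 41 genes (75.6%), against 43.1% of all tested genes. The median log2 fold change was -0.45 for the 41 genes and 0.14 for all tested genes. Before adjustment, 13 genes were lower and 1 was higher at p under 0.05, against 5.67% of all tested genes lower and 8.02% higher. On the recovered reads, edgeR's quasi-likelihood test called Ifih1 alone (1.94% of all genes were called), and DESeq2 called 7 members, where it called 6.12% of all genes with an adjusted p. Both limma calls were lost without any 1 of cKO thymus library 1, cKO liver libraries 1 and 3, and control liver libraries 1, 2 and 3. Ifih1 was also lost without cKO thymus library 2, control thymus library 2 or 3, or cKO liver library 2, and Oas2 without control thymus library 1; adjusted p reached at most 0.145 for Ifih1 and 0.0896 for Oas2 over all 23 alternatives.

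In thymus no member was called by limma, where 0.636% of all tested genes were. By edgeR 0 were called, and by DESeq2 3 (Ifih1 and Sp100 lower, Ifi44 higher), which is 7.32% of the 41 where DESeq2 called 4.98% of all genes. At an unadjusted p under 0.05, 13 were lower in cKO thymus (5.1% of all tested genes) and 1, Samhd1, was higher (8.13% of all). The cKO thymus libraries were separate from and below the control ones for 13 genes (31.7%, background 6.89%) and above them for 2, Mx2 and Samhd1 (4.88%, background 7.6%). The median log2 fold change was -0.44, against 0.24 for all tested genes. Without control thymus libraries 1 and 2 the medians were -0.51 for the members and -0.01 for all tested genes, with 29 members below 0, against 26 with all libraries (63.4%, where 42.3% of all tested genes lay below 0). After TMM rescaling, which put the median of all tested genes at 0.00, 33 members were below 0 and their median was -0.70. Set against control thymus library 3 alone, the 3 cKO thymus libraries were all lower for 21 members (51.2%, against 24.7% of all tested genes).

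In liver no member was called by limma either, where 0.505% of all tested genes were; edgeR called 0 and DESeq2 called 2 (Ifi44 and Rtp4, both lower), where DESeq2 called 2.22% of all genes. At an unadjusted p under 0.05, 7 were lower in cKO liver (3.49% of all tested genes) and 1, again Samhd1, was higher (3.43% of all). The libraries did not overlap for 11 genes lower in cKO liver (26.8%, background 8.66%) and for 1 higher (2.44%, background 9.99%). The median log2 fold change was -0.44, against 0.02 for all tested genes, with 30 members below 0 (73.2%, against 48.5% of all). Without the 2 libraries with the fewest reads the median was -0.49, 29 members were below 0, and the 2 cKO libraries left were below the 2 control ones for 18 members (43.9%, against 19% of all).

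The thymus and liver comparisons share no libraries. Estimates were below 0 in both tissues for 18 of 41 genes (43.9%), against 24.5% of all tested genes, and above 0 in both for 3 (7.32%), against 33.7%. For 5 of 41 genes, namely Ifih1, Oas2, Oas3, Dtx3l and Trim30a, each cKO library lay under each control library in thymus and again in liver (background 1.7%). For Samhd1 each cKO library lay above each control library in both tissues (background 1.82%).

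**Figure D1:**
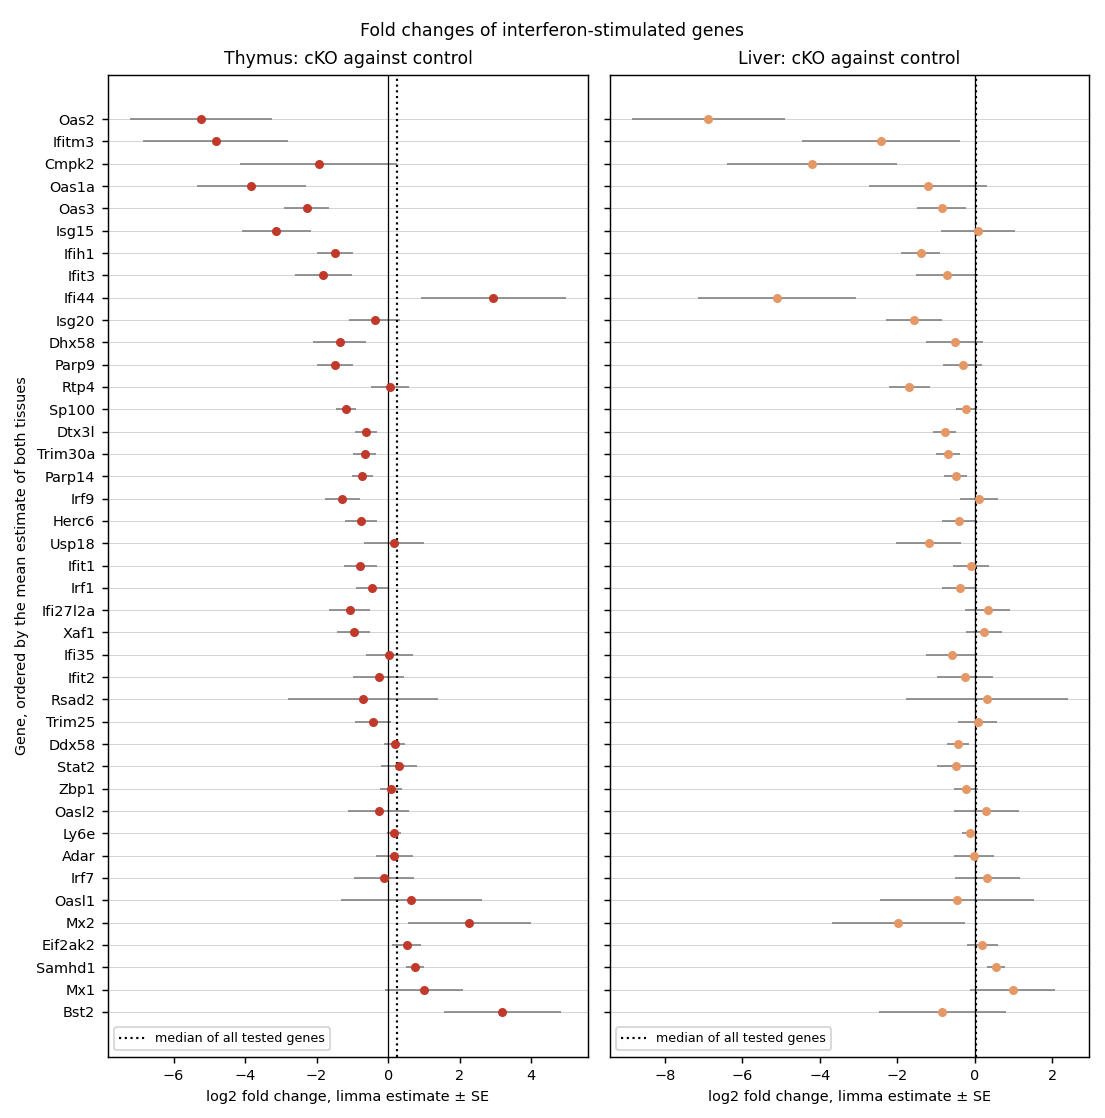
Log2 fold changes of the 41 genes, cKO against control, in thymus (left) and liver (right), as limma estimates (points) with standard errors (bars) on the horizontal axis; genes run down the page in the order of their mean estimate of both tissues, and the dotted line is the median of all tested genes (0.24 in thymus, 0.02 in liver). Most points lie left of the dotted line in both panels, and the bars of low genes such as Oas2, Cmpk2, Rsad2 and Ifi44 are wide.

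Among the cytosolic sensors, Ifih1 (MDA5, a helicase that detects long double-stranded RNA) was the gene that fell (chromosome 2, 62595798 to 62646255, minus strand, GRCm38). Its deposited values were 658, 1053 and 1489 in cKO thymus, against 1502, 3490 and 4361 in control thymus. In liver they were 537, 874 and 855 in cKO cells, against 1829, 2316 and 1733 in control cells. The groups did not overlap in either tissue, although the highest cKO thymus library lay just under the lowest control one. Its log2 fold change over both tissues was -1.44 ± 0.35 (limma adjusted p = 0.0354), with -1.49 ± 0.50 for thymus (0.195) and -1.40 ± 0.50 for liver (0.379). Ddx58 (RIG-I, the sensor of 5′-triphosphate RNA), Dhx58 (LGP2, which regulates both) and Zbp1 (a sensor of Z-form nucleic acids) had estimates over both tissues between -0.94 and -0.07, none called. Ddx58 libraries did not overlap in liver, at 3284 to 3417 in cKO liver and 4222 to 5137 in control liver as the lowest and highest values (log2 fold change -0.44 ± 0.29, limma adjusted p = 0.928).

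The factors that transmit the signal showed no call over both tissues by limma, and 0 of the 4 had an unadjusted p under 0.05. Irf9, the DNA-binding subunit of the complex, had values of 1654, 1150 and 1521 in cKO thymus, against 5472, 4053 and 1875 in control thymus. Those groups did not overlap (log2 fold change -1.28 ± 0.49, limma adjusted p = 0.263), whereas in liver the estimate was 0.10 ± 0.49 and the groups overlapped. Stat2, a subunit of the same complex, Irf1, which interferons also induce, and Irf7, which amplifies interferon production, had estimates over both tissues of -0.09, -0.42 and 0.10 and overlapping groups.

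The 2′-5′ oligoadenylate synthetases, which activate RNase L on double-stranded RNA, held the lowest estimate of the 41 genes over both tissues. Oas2 lies on chromosome 5 (120730333 to 120749853, minus strand). Its values were 0.00466, 55.1 and 79.5 in cKO thymus, against 2664, 117 and 773 in control thymus, where the smallest value stands for no read. Liver values were 0, 115 and 0.836 in cKO cells, against 538, 1245 and 515 in control cells. The groups did not overlap, and cKO liver libraries 1, 2 and 3 held 0, 17 and 1 reads of Oas2. The estimate over both tissues was -6.06 ± 1.40 (limma adjusted p = 0.0249), with -5.24 ± 1.98 for thymus (0.258) and -6.88 ± 1.98 for liver (0.157); its size depends on the pseudocount, since 2 libraries had no read. Without cKO thymus library 1 it was -5.05 over both tissues (limma adjusted p = 0.0553) and -3.22 in thymus (0.555).

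Oas3, which lies 3.24 kb from Oas2 and 119 kb from Oas1a on chromosome 5, had values of 194, 874 and 2573 in cKO thymus, against 2819, 4332 and 4150 in control thymus. The liver libraries gave 2314, 1906 and 1528 in cKO cells, against 3178, 4415 and 2859 in control cells. Every cKO library lay below every control library of its tissue, most of all in cKO thymus library 1. The log2 fold change over both tissues was -1.57 ± 0.44 (limma adjusted p = 0.0752), with -2.28 ± 0.63 in thymus (0.11) and -0.86 ± 0.63 in liver (0.968). Without cKO thymus library 1 the thymus estimate was -1.30 (limma adjusted p = 0.336). Oas1a had no read in cKO thymus library 1 and values of 64.5 and 167 in the other two, against 485, 226 and 290 in control thymus (log2 fold change -3.83 ± 1.52, limma adjusted p = 0.283). The Oas-like genes Oasl1 and Oasl2 had estimates over both tissues of 0.10 and 0.01. Reads of Oas1a, Oasl1 and Oasl2 can be shared with near copies, and the treatment of such reads in counting is unknown here.

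The Ifit proteins bind viral RNA that lacks host cap marks. Ifit3 values were 168, 1177 and 930 in cKO thymus, against 2262, 1782 and 1977 in control thymus. In liver they were 128, 334 and 169 in cKO cells, against 355, 464 and 195 in control cells. The thymus groups did not overlap and the liver groups did; the estimates were -1.81 ± 0.79 for thymus (limma adjusted p = 0.324) and -0.72 ± 0.79 for liver (0.999). The thymus estimate was -0.93 without cKO thymus library 1 (limma adjusted p = 0.681). Ifit1 values were 2231, 3960 and 1205 in cKO thymus, 3616, 3151 and 4773 in control thymus, 1792, 981 and 1074 in cKO liver, and 1066, 1340 and 1666 in control liver. Its groups overlapped in both tissues, with an estimate over both of -0.45 ± 0.33 (limma adjusted p = 0.598), and that of Ifit2 was -0.26 ± 0.51 (0.877). Ifit1 and Ifit3 also have near copies in the mouse genome.

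Samhd1, which breaks down deoxynucleotides and so restricts reverse transcription, ran the other way (chromosome 2, 157097533 to 157135265, minus strand). Its values were 11317, 12530 and 12294 in cKO thymus, against 7755, 7276 and 6541 in control thymus. Liver values were 16587, 12299 and 10728 in cKO cells, against 10161, 9922 and 7135 in control cells. Every cKO library lay above every control library of its tissue. The estimate over both tissues, 0.64 ± 0.17, missed the threshold (limma adjusted p = 0.0533), as did 0.75 ± 0.24 for thymus (0.167) and 0.54 ± 0.24 for liver (0.638). Isg20, a 3′-5′ RNA exonuclease, had values of 1085, 2776 and 2897 in cKO thymus, 3337, 1982 and 2897 in control thymus, 87.8, 261 and 418 in cKO liver, and 234, 1593 and 685 in control liver. Its groups overlapped in each tissue (log2 fold change over both -0.98 ± 0.51, limma adjusted p = 0.416). The RNA-dependent kinase Eif2ak2 (PKR) and the RNA editing enzyme Adar had estimates over both tissues of 0.35 and 0.07, with overlapping groups.

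**Figure D2:**
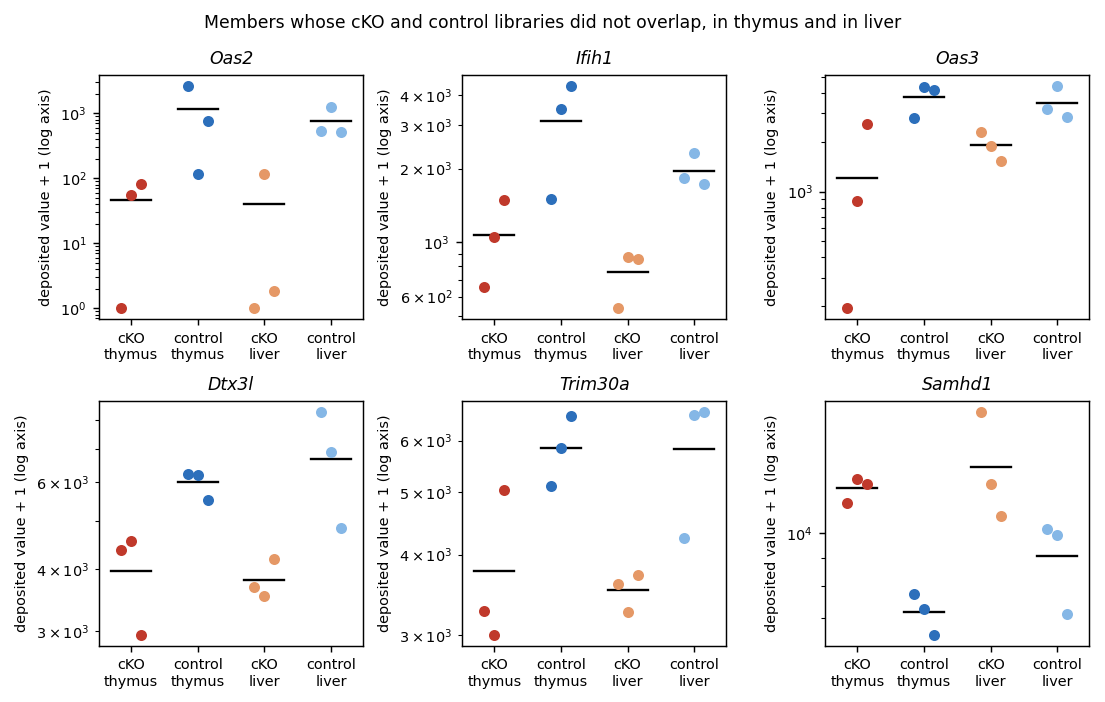
Deposited value + 1 (vertical log axis) of the 6 genes whose cKO and control libraries did not overlap in thymus and in liver; each point is a library and each bar the mean of 3, with cKO thymus, control thymus, cKO liver and control liver from left to right. Oas2, Ifih1, Oas3, Dtx3l and Trim30a lie lower in cKO libraries of each tissue and Samhd1 lies higher; the Oas2 points at the bottom are libraries with 0 or 1 read.

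Of the 12 membrane and GTPase effectors, 5 had estimates below 0 in thymus and 8 in liver. Rtp4, a receptor-transporting protein with antiviral activity, had values of 823, 1718 and 965 in cKO thymus, against 1526, 819 and 975 in control thymus. The liver libraries gave 540, 354 and 394 in cKO cells, against 1020, 1838 and 1356 in control cells. Only the liver groups were separate (log2 fold change -1.69 ± 0.54, limma adjusted p = 0.261), and the thymus estimate was 0.05 ± 0.54 (0.987).

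Ifi44, a cytosolic GTP-binding protein, was read in 4 libraries. It had 0, 0 and 670 reads in cKO thymus, against 0 in each control thymus library. In liver it had 0 reads in each cKO library, against 44, 13 and 28 in control cells. Set against a floor of 3 reads per library, it was at least 8.78-fold lower in cKO liver than in control liver, which had a mean deposited value of 71.4. In thymus the mean of 165 in cKO cells, at least 46.7-fold above the floor in control cells, came from cKO thymus library 3 alone. Fitted estimates of Ifi44 depend on the pseudocount and are not bounds.

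The dynamin-like GTPases Mx1 and Mx2, which trap viral nucleoprotein, share sequence. Mx2 values were 648, 572 and 241 in cKO thymus, against 48.2, 94.8 and 172 in control thymus. In liver they were 0, 7.84 and 38.7 in cKO cells, against 4.32, 33.4 and 116 in control cells. Cells of cKO thymus were above those of control thymus in every library (log2 fold change 2.26 ± 1.72, limma adjusted p = 0.603), and the liver groups overlapped (-1.98 ± 1.72, 0.999). For Mx1 the estimate over both tissues was 0.99 ± 0.78 (limma adjusted p = 0.634).

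Ifitm3, which blocks fusion of viruses in endosomes, had no read in cKO thymus library 1 and values of 210 and 19.1 in cKO thymus libraries 2 and 3, against 694, 590 and 232 in control thymus. These groups did not overlap (log2 fold change -4.82 ± 2.03, limma adjusted p = 0.308). Cmpk2, a mitochondrial nucleotide kinase that neighbours Rsad2 (viperin) by 12.8 kb, had values of 0, 87.9 and 63.7 in cKO liver, against 495, 423 and 171 in control liver (-4.20 ± 2.19, 0.791). Bst2 (tetherin, which holds budding virus at the membrane) had values of 216, 234 and 273 in cKO liver, against 473, 385 and 436 in control liver. In thymus its estimate was 3.19 ± 1.64 (limma adjusted p = 0.408) with overlapping groups, and 1 control thymus library had no read of it. Xaf1, a pro-apoptotic partner of XIAP, had cKO thymus values of 728, 741 and 1350, against 1697, 2266 and 1405 in control thymus. Those groups did not overlap, with the highest cKO value just under the lowest control one (log2 fold change -0.96 ± 0.46, limma adjusted p = 0.375). The remaining genes of this class (Ifi27l2a, Ifi35, Rsad2) had estimates over both tissues between -0.37 and -0.20.

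All 8 genes of the ISG15, ubiquitin and ADP-ribose class had estimates below 0 over both tissues, from -1.53 to -0.18, with a median of -0.64 and 0 called by limma (5 lower at an unadjusted p under 0.05). Of all tested genes, 43.1% lay below 0 and 5.67% were lower at that p. Isg15, a ubiquitin-like protein that is attached to other proteins, had values of 23.6, 286 and 436 in cKO thymus, against 823, 1546 and 1638 in control thymus. Liver values were 321, 527 and 282 in cKO cells, against 240, 274 and 612 in control cells. Thymus groups were separate and liver groups overlapped, with log2 fold changes of -3.13 ± 0.96 (limma adjusted p = 0.148) and 0.08 ± 0.96 (0.999). Without cKO thymus library 1 the thymus value was -1.85 (limma adjusted p = 0.404).

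Dtx3l and Parp9 encode a ubiquitin ligase and its ADP-ribosyltransferase partner. Dtx3l values were 4375, 4557 and 2952 in cKO thymus, against 6237, 6197 and 5527 in control thymus. The liver libraries gave 3682, 3539 and 4196 in cKO cells, against 8305, 6904 and 4839 in control cells. No library of one genotype reached the other in either tissue (log2 fold change over both -0.70 ± 0.21, limma adjusted p = 0.0972). Parp9 gave -0.90 ± 0.35 over both tissues (limma adjusted p = 0.241). The annotated genes Dtx3l and Parp9 overlap by 682 bp on opposite strands of chromosome 16, and without knowledge of strand use reads from that stretch cannot be told apart.

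Parp14, an ADP-ribosyltransferase encoded 55 kb from Dtx3l, had values of 4587, 4502 and 5475 in cKO thymus, against 8662, 9792 and 5974 in control thymus. In liver they were 5087, 5837 and 4880 in cKO cells, against 5549, 9853 and 7437 in control cells. The thymus groups were separate and the liver groups overlapped (log2 fold change over both -0.61 ± 0.20, limma adjusted p = 0.146). Trim30a, a ubiquitin ligase that dampens signalling in mice and has near copies, had values of 3276, 3008 and 5036 in cKO thymus, against 5112, 5842 and 6546 in control thymus. Liver values were 3597, 3259 and 3715 in cKO cells, against 4242, 6583 and 6643 in control cells, again without overlap (over both -0.68 ± 0.22, 0.126). Herc6, the ligase that attaches Isg15 in mice, gave -0.59 ± 0.32 over both tissues (limma adjusted p = 0.435), Usp18, which removes Isg15, gave -0.51 ± 0.60 (0.768), and Trim25, the ligase that acts on RIG-I, gave -0.18 ± 0.35 (0.881).

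Sp100, a scaffold of nuclear bodies, was the member nearest to the threshold in thymus (chromosome 1, 85649988 to 85709998, plus strand). Its values were 11824, 19589 and 12800 in cKO thymus, against 39649, 41671 and 21314 in control thymus. The liver libraries gave 17685, 13819 and 12278 in cKO cells, against 21884, 17433 and 12526 in control cells. Cells of cKO thymus lay below control thymus in every library and the liver groups overlapped, with log2 fold changes of -1.19 ± 0.28 (limma adjusted p = 0.0598) and -0.22 ± 0.28 (0.999). In thymus it was called under 6 of 24 alternatives, with adjusted p from 0.00631 to 0.703 among them; after TMM rescaling it fell by 1.45 on the log2 scale (limma adjusted p = 0.0266). Without control thymus libraries 1 and 2 the thymus estimate was -0.57 (limma adjusted p = 0.703).

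**Figure D3:**
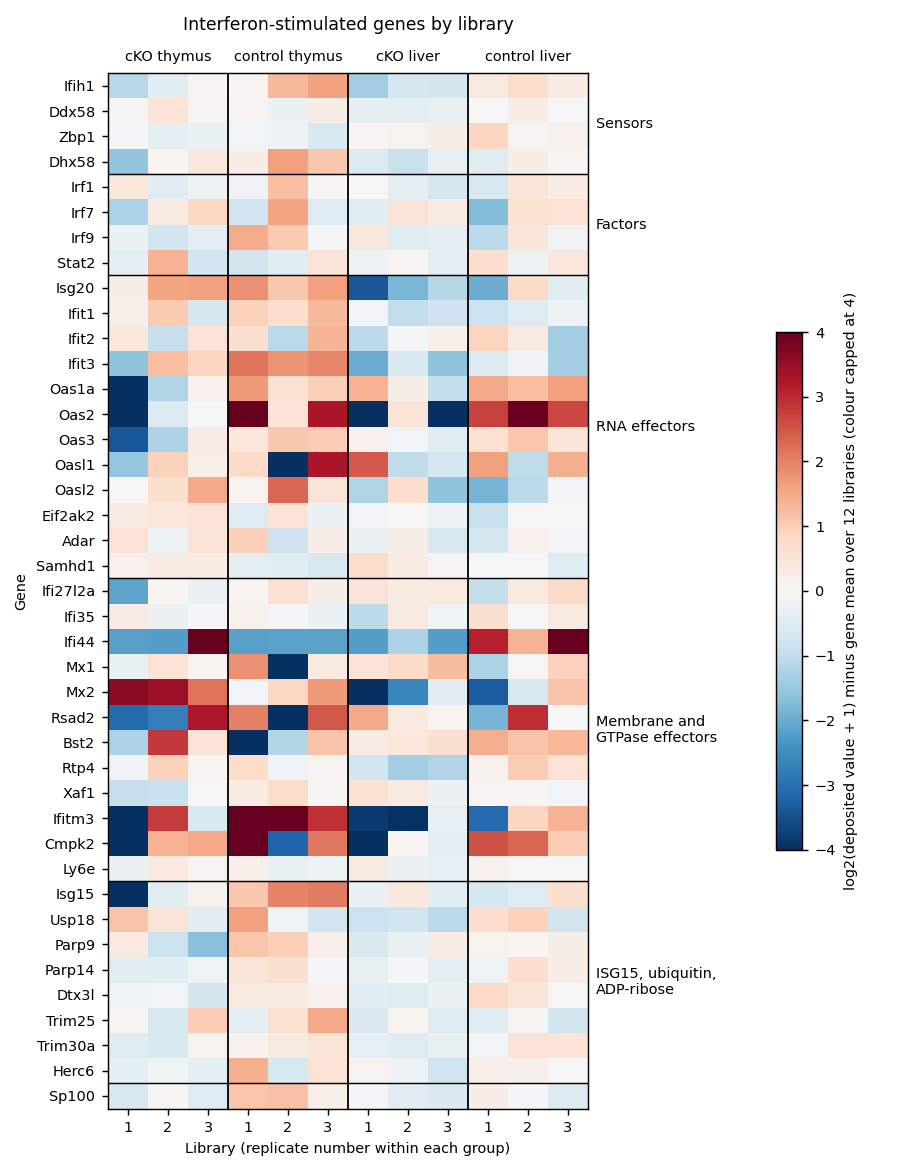
Log2 of the deposited value + 1 of each of the 41 genes in each library, minus the gene's mean over the 12 libraries (colour, capped at 4 in each direction); columns are libraries in the order cKO thymus, control thymus, cKO liver, control liver, and rows are grouped by role with Sp100 last. Control thymus columns are mostly red in the rows from Ifit1 to Oas3, cKO thymus library 1 and cKO liver library 1 hold the most dark blue cells, and rows of low genes such as Ifi44 and Rsad2 change from library to library.

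Libraries of a group did not contribute evenly. Relative to each gene's mean, the median log2 departure of the 41 genes was -0.35, 0.08 and 0.13 in cKO thymus, against 0.45, 0.56 and 0.50 in control thymus. In liver it was -0.29, -0.12 and -0.36 in cKO cells, against 0.02, 0.28 and 0.23 in control cells. The same medians over all tested genes were 0.04, 0.06 and 0.13 in cKO thymus, -0.37, -0.26 and 0.08 in control thymus, 0.10, 0.15 and 0.22 in cKO liver, and 0.01, 0.21 and 0.14 in control liver. The members thus stood above their mean in all 3 control thymus libraries, 2 of which had a median below 0 over all genes. Of the 41 genes, 8 had their lowest value in cKO thymus library 1, 8 in cKO liver library 1, and 12 had their highest in control thymus library 1.

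**Figure D4:**
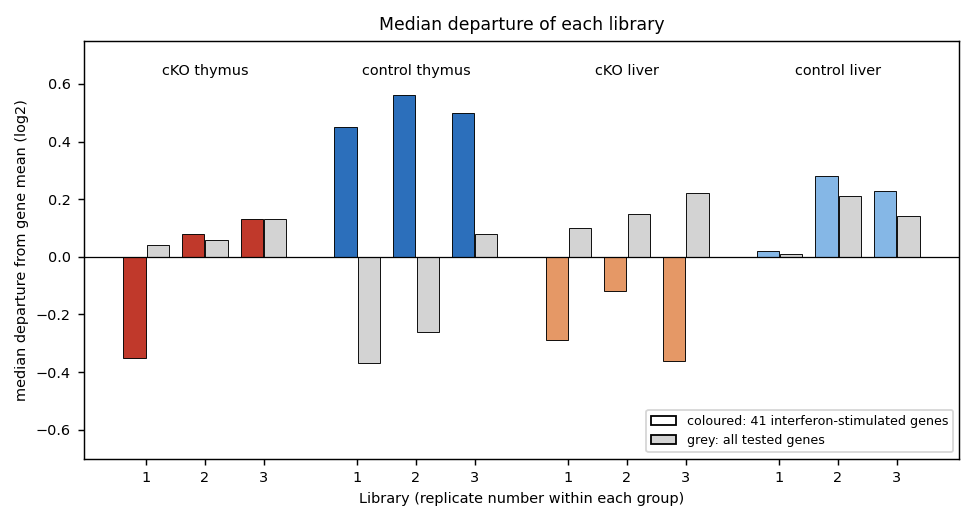
Median log2 departure from the gene mean in each library (vertical axis) for the 41 genes (coloured bars) and for all tested genes (grey bars), with cKO thymus, control thymus, cKO liver and control liver from left to right. The coloured bars stand at 0.45 to 0.56 in control thymus and at -0.36 to -0.12 in cKO liver, and the grey bars are lowest in control thymus libraries 1 and 2.

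The genotype effects of liver and thymus were compared directly as their difference. No member was called by limma, where 0.00766% of all tested genes were; edgeR called 0, DESeq2 called 1 (Ifi44, where it called 0.894% of all genes), and 4 members had an unadjusted p under 0.05 (9.76%, background 5.38%). Beside Ifi44 these were Sp100 with a log2 difference of 0.97, Isg15 with 3.22 and Rtp4 with -1.74 (limma adjusted p = 0.911 for each of the 3). The separation of Isg15 and Sp100 in thymus and of Rtp4 in liver was therefore not shown to differ between tissues. The median difference was 0.01 for the 41 genes and -0.20 for all tested genes.

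Liver was also set against thymus within each genotype, with libraries that the genotype comparisons use as well. In control cells no member was called by limma, where 0.605% of all tested genes were; edgeR called 0, DESeq2 called 3 (Ifit1, Ifit3 and Ifi44, where it called 3.89% of all genes), and 9 had an unadjusted p under 0.05 (22%, background 12.7%). Values of Ifit3 in control liver lay below those in control thymus in every library (estimate -2.65, limma adjusted p = 0.156), and so did Ifit1 (-1.50, 0.17) and Isg20 (-2.07, 0.23). In cKO cells no member was called by limma, where 0.222% of all tested genes were; edgeR called 0, DESeq2 called 3 (Isg20, Ifi44 and Mx2, where it called 2.18% of all genes), and 3 had an unadjusted p under 0.05 (7.32%, background 7.6%). Isg20 gave -3.27 ± 0.72 in cKO liver against cKO thymus (limma adjusted p = 0.0745) with no overlap, and Mx2 gave -5.99 (0.216). The median log2 fold change of the 41 genes, liver against thymus, was -0.24 in cKO cells and -0.22 in control cells, against 0.09 and 0.28 for all tested genes.

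Upstream of these genes, Ifnar1 and Ifnar2 were read in every group. Their estimates over both tissues were 0.04 (limma adjusted p = 0.973) and -0.50 (0.519), and those of the kinases Jak1 and Tyk2 were 0.06 (0.911) and 0.26 (0.829). Of 7 tested receptor and kinase genes 1 was called over both tissues, Ifngr1, a chain of the interferon gamma receptor, which rose by 1.25 on the log2 scale (limma adjusted p = 0.00337), where 2.27% of all tested genes were called and 1.18% were called higher. Its values lay between 13500 and 18800 in cKO thymus, between 4360 and 10100 in control thymus, between 20800 and 29100 in cKO liver, and between 7050 and 14000 in control liver. Of 20 listed ligand genes Ifng and Ifnk had a row; Ifng gave 1.10 (limma adjusted p = 0.562) and the sparsely read Ifnk gave -4.12 (0.146).

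Among 8 tested genes of interferon induction none was called by limma over both tissues. An unadjusted p under 0.05 was reached by 1, Tlr7, and by 13.7% of all tested genes. Tlr7 gave -4.48 ± 1.17 over both tissues (limma adjusted p = 0.051). Its values were 0 to 0.979 in cKO liver, against 48.7 to 261 in control liver, and its thymus groups overlapped. Of 9 negative regulators none was called over both tissues, where Pias4 gave 3.60 (limma adjusted p = 0.0759). In thymus alone Pias4 was called higher in cKO cells (limma adjusted p = 0.0426), where 0.636% of all tested genes were called. It was almost unread in control thymus (0.0212 to 5.06) and had values of 37.4 to 849 in cKO thymus.

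A further 42 tested interferon-stimulated genes outside the 41 had a median log2 fold change over both tissues of -0.56, with 31 below 0, 4 called lower and 0 called higher. The list of these genes was chosen with earlier results of these data known, so it is not an independent check of the 41. Over all tested genes the median was 0.14, 43.1% lay below 0, 2.27% were called and 1.1% were called lower. The 4 genes were Rnf213, a giant ubiquitin ligase (-0.89, limma adjusted p = 0.0115), Mndal, a member of the Ifi200 family (-0.84, 0.0173), Apobec3, a cytidine deaminase that restricts retroviruses (-0.78, 0.0375), and Shisa5 (-0.75, 0.0189). Rnf213 values were 10500 to 15400 in cKO thymus, against 18700 to 34900 in control thymus, and 6150 to 8580 in cKO liver, against 12800 to 15700 in control liver. Mndal values were 4980 to 6230 in cKO thymus, against 8450 to 10600 in control thymus, and 3960 to 5390 in cKO liver, against 7120 to 10500 in control liver. Both genes had non-overlapping groups in each tissue. In control liver against control thymus, Cxcl10, a chemokine, and Ly6a (Sca-1) rose by 7.17 and 2.55 on the log2 scale (limma adjusted p = 0.0265 and 0.00917). In that comparison 0.605% of all tested genes were called. Cxcl10 was nearly unread in control thymus, at 1.14 to 5.06. Of the 42 genes, 10 were higher and 2 lower there at an unadjusted limma p under 0.05, against 8.75% and 3.94% of all tested genes. The median of the 42 was -0.13, against 0.28 for all tested genes.

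Some single markers of other cells moved with genotype, and the sums of their lists mostly follow them. The 7 plasmacytoid dendritic cell markers with a row (Bst2, Tcf4, Ly6d, Irf8, Ccr9, Pacsin1 and Spib, of 9 listed) summed to 3890 to 5400 in cKO thymus, against 959 to 1870 in control thymus, and to 7110 to 15400 in cKO liver, against 4790 to 5400 in control liver. Most of the sum in cKO cells was Ccr9, also on the immature thymocyte list, at 2450, 2660 and 3040 in cKO thymus, 262, 59 and 693 in control thymus, 14600, 6470 and 12800 in cKO liver, and 3380, 4060 and 3560 in control liver. Tcf4 was also higher in every cKO thymus library, at 729, 75.7 and 581, against 0.0212, 2.34 and 65.2 in control thymus. Its liver groups overlapped. Thymus values of Bst2, itself one of the 41, Irf8 and Pacsin1 overlapped between genotypes. In liver Bst2, Irf8 and Pacsin1 had lower means in cKO than in control cells, with Irf8 at 281 to 456 in cKO cells, against 406 to 560 in control cells. Ly6d and Spib were at or near 0 in all libraries except control liver libraries 1 (154 and 13.9) and 3 (0.864 and 7.19). The 6 B cell markers with a row, of 8, summed to 1090 to 2080 in cKO liver, against 5480 to 8180 in control liver, and to 1520 to 5690 in cKO thymus, against 3160 to 5350 in control thymus, and nearly all of it was Ighm, at 1980, 1080 and 1340 in cKO liver, against 7340, 6940 and 5260 in control liver. Myeloid markers (6 of 12) summed to 666 to 1160 in cKO liver, against 25.6 to 1300 in control liver, and Mmp9, the neutrophil marker with a row, to at most 1.16 in cKO liver, against 3030 to 3580 in control liver. Endothelial markers (3 of 8) summed to 1.16 to 89.7 in cKO liver, against 466 to 946 in control liver, and to 0.923 to 68.5 in cKO thymus, against 72.9 to 302 in control thymus; Pecam1, which T cells also express, gave most of it, at 1.16, 88 and 31 in cKO liver, against 671, 458 and 623 in control liver. Sums of hepatocyte, immature thymocyte and erythroid markers overlapped between genotypes in both tissues, but single thymocyte markers moved in opposite directions. Themis and Ccr9 were called higher in cKO thymus by limma, where 0.636% of all tested genes were called. Themis was at 2680, 2360 and 3040 in cKO thymus, against 127, 1040 and 465 in control thymus. Cd4 was lower, at 91.4, 376 and 734 in cKO thymus, against 2580, 7390 and 985 in control thymus. Its liver values were 832, 234 and 1660 in cKO cells, against 7920, 6440 and 6960 in control cells. The part of these cells in the values of the 41 genes was not tested.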

How the data were processed

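Nugen's Ovation Ultralow kit was used for library construction, per the labels' protocols. Tools listed in the submitters' processing notes, without role or order, are HTSeq 0.6.1, STAR, Trimmomatic 0.33, DESeq2 and TopHat2 2.1.0, with the build mm10; the aligner used, strand use and the handling of shared reads are not given in the sources used here. The authors deposited a library-size-adjusted signal per gene for 12 libraries. Whole reads of all 12 libraries come from inverting a fitted negative binomial adjustment (dispersion 1.44), which is inferred from the values. Of all values, 96.8% came out within 0.1 of a whole read. The lowest shares were 92.8% and 92.1% in cKO liver libraries 1 and 2 and 91.5% in control liver library 3.

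Genes that reached a value of 10 in 3 or more libraries were fitted with limma 3.58.1 (R 4.3.3) on log2(value + 1), with 4 group means, a variance trend and Benjamini-Hochberg adjustment over 13058 genes. Fold changes are on that scale, and those of low genes depend on the pseudocount. They can be larger or smaller than under a count model: Oas2 over both tissues was -6.06 by limma and -4.63 by edgeR. A single low library can also set the sign. Mx1 in thymus gave 1.00, although its mean value was 1060 in cKO and 1550 in control cells, with 32.4 in control thymus library 2. The plan named edgeR for raw counts; edgeR 4.0.16 and DESeq2 1.42.0 on recovered reads were alternatives, with other scalings, filters and omitted libraries. Symbols came by Ensembl identifier (95.4% matched, GRCm38). Members and lists were chosen with earlier results of these data known. Values were printed for members called or among the 4 with the smallest p of a contrast or the 4 with the highest mean; others that are described in full were chosen after their values were seen.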

Additional observations from a re-analysis of the deposited data

How the results depend on the processing

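Each comparison was recomputed under 23 or 24 alternatives. In thymus, TMM rescaling (0.827% of all genes called), median-of-ratios rescaling (0.682%) and a pseudocount of 5 (0.888%) each called 1 member, Sp100. DESeq2 called 3 (4.98% of all genes). Leaving out single libraries gave 0 to 1. Oas3 was called without cKO thymus library 3 (0.161% of all genes) and Sp100 without control thymus library 3 (4.14%). In liver, array weights called 5 (Isg20, Ifih1, Oas2, Rtp4, Trim30a; 4.75% of all genes), DESeq2 2 (2.22%), and a fit of the liver libraries alone 1 (Oas2; 2.24%), against 0.505% in the reported fit. Over both tissues the 2 calls (2.27% of all genes) became 5 after TMM rescaling (2.59%), 7 by DESeq2 (6.12%) and 1 by edgeR (Ifih1, 1.94%). Without the 2 libraries with the fewest reads 1 was called (Oas2, 0.59% of all genes). Without control thymus libraries 1 and 2 the member median was -0.62, against 0.01 for all tested genes. Leaving out single libraries gave 0 to 3 over both tissues: 0 without cKO thymus 1, cKO liver 1 or 3, or any control liver library, and 1 without control thymus 1 or 2 or cKO liver 2. Fits without a single library called 1.3% to 4.18% of all genes. Oas2 was called under 14 of the 23 alternatives (adjusted p 0.013 to 0.0896) and Ifih1 under 12 (0.000484 to 0.145), and both kept their sign in all 23. DESeq2 called 1 member for the difference of the genotype effects (0.894% of all genes), 3 in control liver against control thymus (3.89%) and 3 in cKO liver against cKO thymus (2.18%). The single-library range was 0 to 1 for each tissue comparison. Sp100 was called in control cells without control thymus library 3 (3.02% of all genes), and Isg20 in cKO cells without control liver library 1 (0.199%). Isg20 was also the 1 call in cKO cells with a pseudocount of 5 (0.375%), with array weights (1.08%), and in the cKO libraries alone (0.437%). Over all genes, the 83 calls in thymus became 613 by DESeq2, 541 without control thymus library 3, 4 without control thymus libraries 1 and 2, and 0 in a fit of the thymus libraries alone; the cause was not tested.

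Replicate numbers did not pair the libraries (correlations of same-numbered deviations from -0.10 to 0.08). A fit with a replicate block called 1 member in thymus (Sp100), where it called 0.62% of all genes. Over both tissues the block fit called 4 (Ifih1, Oas2, Samhd1, Sp100), with 2.32% of all genes called. In cKO liver against cKO thymus it called 1 (Isg20), with 0.26% of all genes called.

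TMM rescaling moved the median thymus log2 fold change of all genes to 0.00 and that of the members to -0.70, with 33 below 0. Over all alternatives the member median minus the all-gene median lay between -0.84 and -0.50 in thymus, -0.51 and -0.41 in liver, and -0.72 and -0.51 over both. In the 2 liver libraries with 3.21 M and 3.87 M reads, Oas2 rests on 17 and 85 reads and Ifi44 on 0 and 28.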
